A study of Homo sapiens with 12 samples.

Results

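The human line AsPC-1, an established line from a pancreatic ductal adenocarcinoma, was compared between hypoxia and normoxia under a control siRNA. The comparison takes the 3 libraries titled Hypoxia_siControl and the 3 titled Normoxia_siControl, 6 of the 12 libraries of the study. The other 6 received an siRNA against ARNT. All 6 control cultures were transfected with a scrambled siRNA by lipofection, each well was split on the next day, and the cells were kept at 21% O2 (normoxia) or at 1% O2 for 24 h (hypoxia) until RNA was taken 48 h after transfection. The line comes from a single tumour, and the labels do not say that replicates A, B and C were separate experiments. The p-values therefore measure the spread between replicate cultures, which may be technical. That spread was estimated over all 12 libraries, those with the siRNA against ARNT included.

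Cells short of oxygen stabilise the alpha subunits of the hypoxia-inducible factors (HIF), which pair with ARNT and switch on genes for glycolysis, glucose uptake, angiogenesis and oxygen sensing. Oxygen is also the final electron acceptor of respiration and a substrate of the JmjC histone demethylases and TET dioxygenases. The known HIF targets are given briefly below, and then the other pathways, RNA classes and splicing.

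Reads assigned to genes came to 75.62, 45.74 and 54.96 M in normoxia A, B and C and to 68.88, 46.99 and 48.33 M in hypoxia A, B and C. Epithelial markers were abundant in all 6 libraries: EPCAM stood between 794 and 866 CPM (reads of the gene scaled to the reads of the library, in this paragraph without TMM scaling), but the ductal keratin KRT7 only between 1.07 and 1.71. Of markers of other cells, the 5 acinar ones had at most 2 reads in a library, and INS, SST, CHGA, CD3E and PDGFRA had none. PTPRC, CDH5 and KDR had at most 4 reads. Low but present were GCG (0.37 to 0.621 CPM), CD68 (up to 0.766), VWF (up to 0.886), DCN (up to 0.979), PDGFRB (up to 0.372) and 3 fibrillar collagen genes (up to 0.261). LUM and LYZ, listed as stromal and leukocyte markers, were high in every library, at 401 to 571 and 178 to 226 CPM. PECAM1 was not matched.

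Hypoxia changed 4299 of the 16999 genes tested, or 25.3% (edgeR's quasi-likelihood test, Benjamini-Hochberg adjusted p under 0.05, which is what "rose" and "fell" mean below). Of these, 1772 rose (10.4%) and 2527 fell (14.9%). The changes were mostly small, with a median rise of 1.49-fold and a median fall of -0.44 on the log2 scale, and 385 rises and 98 falls reached 2-fold. The normoxia and hypoxia libraries did not overlap for 7952 genes (46.8%). The 53 lists described below held 1711 of the tested genes, and 3567 of the called genes were on none of them. Each list is a description without a test of its own, to be read against 10.4% and 14.9% and against the median log2 fold change of 0.02 over all genes. Most lists are of coding genes, of which 11.25% rose and 18.78% fell, so a share of falls near 18.78% is no more than that of coding genes.

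Of the known HIF targets, 50 of 58 rose and 2 fell, with a median log2 fold change of 1.15. MIR210HG, the host transcript of a hypoxia-induced microRNA, stood at 0.416, 0.459 and 0.427 CPM in normoxia and 7.44, 11.6 and 6.33 CPM in hypoxia (log2 fold change 4.28, SE 0.362, adjusted p 1.20e-05). The carbonic anhydrase CA12 fell (-0.34, SE 0.0825, adjusted p 0.0102), but its call was lost without normoxia C, or with no filter on low counts (adjusted p 0.0589 to 0.089). HIF1A itself stood at 0.06 (adjusted p 0.735) and EPAS1 at 0.13 (adjusted p 0.176), neither called. Some targets had a non-coding neighbour that rose too. PDK1-AS1 overlaps the pyruvate dehydrogenase kinase gene PDK1 by 1224 bases on the other strand, and its log2 fold change was 2.89 against 1.38 for PDK1. SLC2A1-DT overlaps the glucose transporter gene SLC2A1 by 128 bases (1.18 against 1.94), and LMNTD2-AS1 lies 5552 bases from MIR210HG (3.28). Whether reads were counted by strand is not given in the sources used here, so overlapping genes on opposite strands cannot be told apart.

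**Figure D1:**
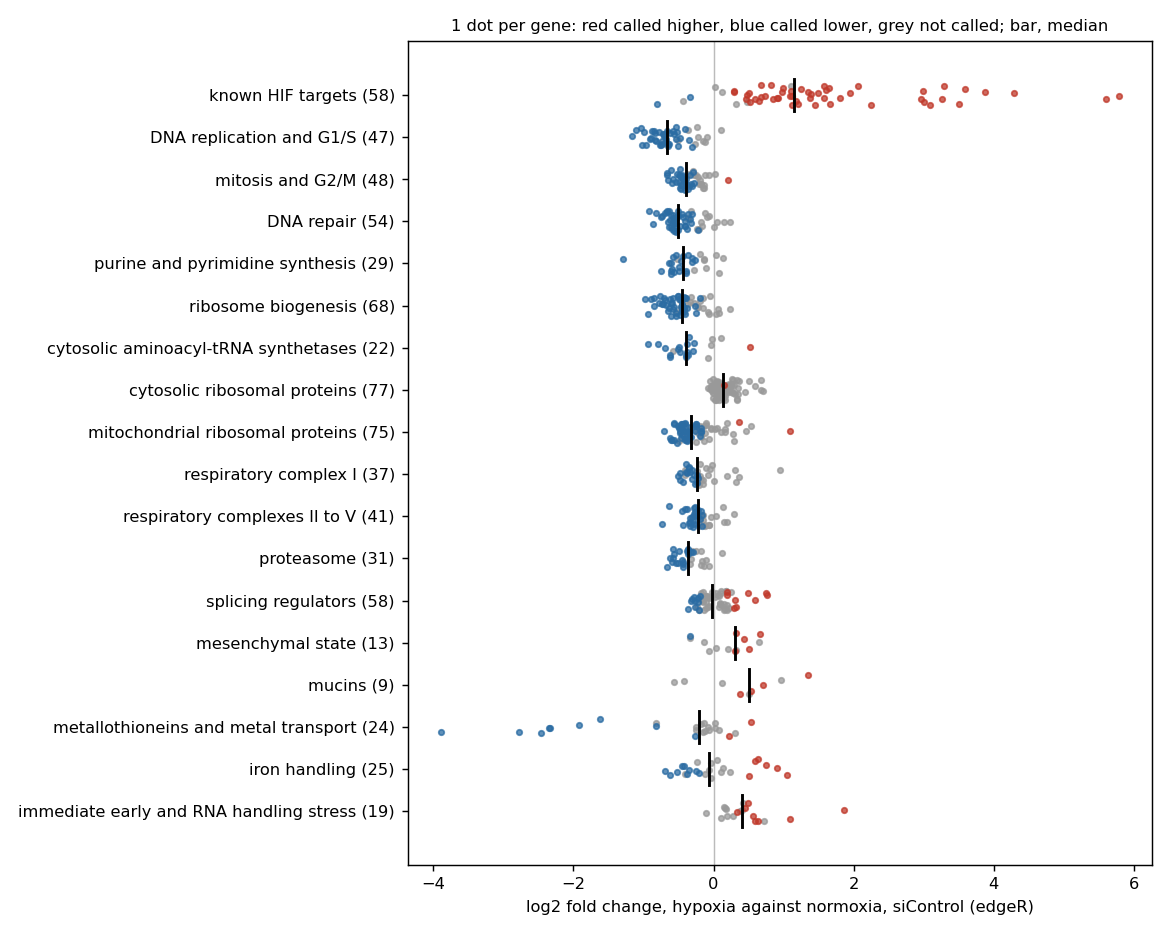
Log2 fold change of hypoxia against normoxia (x axis) for each tested gene (dots) of 18 gene lists (y axis), with the list median as a bar. The known HIF targets lie to the right with a median of 1.15 and the replication genes to the left with a median of -0.67.

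The steepest rises outside the HIF list fell on genes of several kinds. POU5F1 (ENSG00000204531.11), which encodes the pluripotency factor OCT4, stood at 2.78, 3.02 and 2.82 CPM in normoxia and 18.3, 16.6 and 16.1 CPM in hypoxia (log2 fold change 2.56, SE 0.129, adjusted p 2.55e-07). POU5F1 spans chr6:31164337-31180731 on the minus strand (GENCODE 29, GRCh38), and the non-coding gene PSORS1C3 lies inside it on the same strand (chr6:31173735-31177899). PSORS1C3 went from 4.00, 3.87 and 4.25 CPM to 22.8, 22.7 and 21.4 CPM (log2 fold change 2.46, SE 0.096, adjusted p 3.83e-08). The 2 genes share 4165 bases, and POU5F1 has processed copies elsewhere in the genome, so the counts do not settle which transcript gave the reads.

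APOL1, the apolipoprotein L of the trypanosome-killing serum factor, stood at 28.4, 31.3 and 29.6 CPM in normoxia and 150.4, 152 and 145 CPM in hypoxia (log2 fold change 2.32, SE 0.0973, adjusted p 7.28e-08). APOL2, 13055 bases away on chromosome 22, went from 22.0, 22.5 and 20.9 CPM to 67.2, 72.9 and 64.9 CPM (log2 fold change 1.65, SE 0.0994, adjusted p 8.54e-07). In both genes every hypoxia library lay far above every normoxia library. The other 2 family members tested were not called, APOL3 at -0.48 (adjusted p 0.0628) and APOL6 at -0.13 (adjusted p 0.22). Both lay lower in hypoxia without overlap. APOL3 was called lower without hypoxia C (adjusted p 0.0136), with total count scaling (adjusted p 0.0479) and with a correction for GC content (adjusted p 0.0349). It was also called lower with that correction and the replicate letter as a block (adjusted p 0.0389).

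TFF2, a trefoil peptide secreted with mucus, went from 1.95, 2.25 and 2.23 CPM to 10.6, 12.2 and 8.48 CPM (log2 fold change 2.29, SE 0.176, adjusted p 4.77e-06). TNFSF9, the ligand of the T-cell receptor 4-1BB, went from 8.60, 7.92 and 6.72 CPM to 34.4, 40.6 and 25.4 CPM (log2 fold change 2.11, SE 0.164, adjusted p 5.05e-06). SCIN, an actin-severing protein, went from 9.80, 8.77 and 8.87 CPM to 33.8, 33.9 and 30.7 CPM (log2 fold change 1.84, SE 0.0976, adjusted p 3.62e-07). Groups were apart in all 3, and hypoxia C was the lowest hypoxia library in each. The membrane adaptor PAG1 (2.02, SE 0.111, adjusted p 4.40e-07), the long non-coding RNA LUCAT1 (1.74, SE 0.151, adjusted p 1.20e-05) and C8orf58 (1.65, SE 0.128, adjusted p 4.84e-06) also rose.

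**Figure D2:**
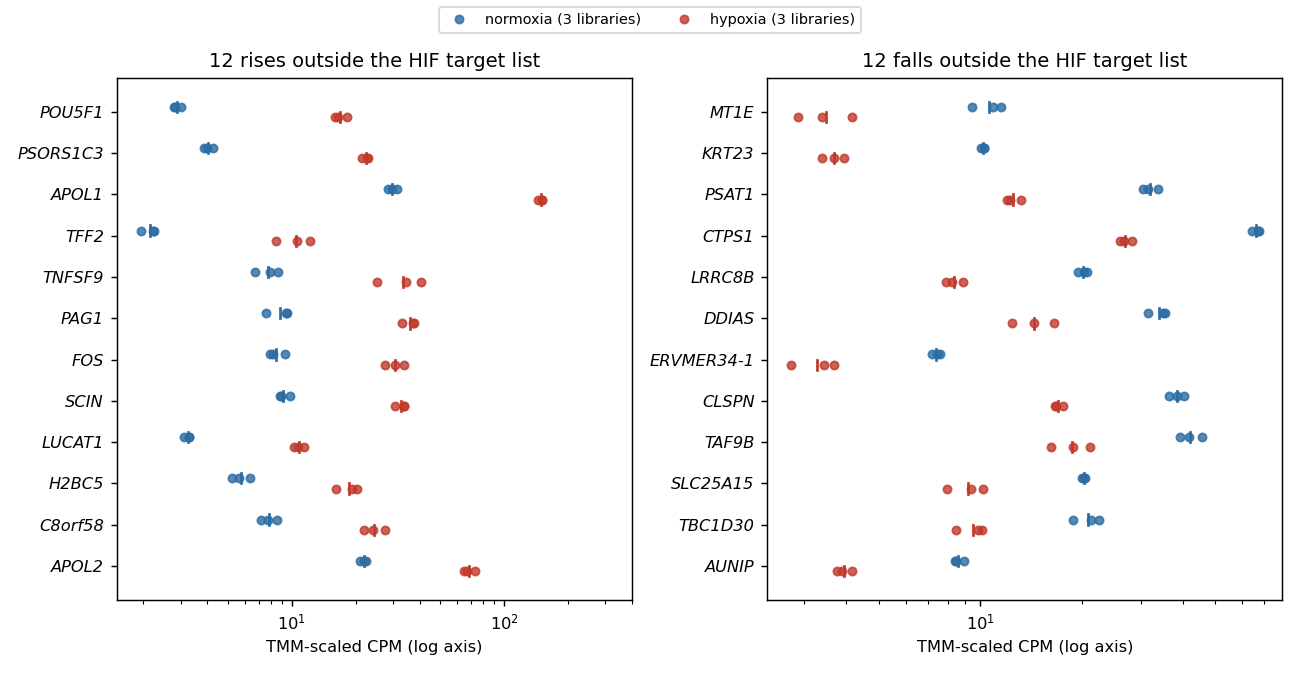
Scaled CPM (x axis, log scale) in each of the 3 normoxia and 3 hypoxia libraries (dots; tick, group mean) for the 12 largest rises and 12 largest falls outside the HIF targets (y axis). The 2 groups are apart in all 24 genes, which the choice of genes required, as it did a mean of at least 5 CPM.

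The promoters of 4 of these rises are shown because each holds a core sequence of HIF or AP-1. HIF dimers bind around ACGTG or GCGTG, and AP-1 binds TGAGTCA. Both strands were searched (the other strand reads CACGT for the first HIF core, CACGC for its variant and TGACTCA for AP-1), and none of the matches printed overlap. The sequences are the 250 bases before the RefSeq start site (GRCh38.p14), 5′ to 3′ on the strand of the gene, with matches in capitals: TNFSF9 at chr19:6530776-6531025 (plus), FOS at chr14:75278578-75278827 (plus), SCIN at chr7:12570470-12570719 (plus) and LUCAT1 at chr5:91314403-91314652 (minus).
TNFSF9: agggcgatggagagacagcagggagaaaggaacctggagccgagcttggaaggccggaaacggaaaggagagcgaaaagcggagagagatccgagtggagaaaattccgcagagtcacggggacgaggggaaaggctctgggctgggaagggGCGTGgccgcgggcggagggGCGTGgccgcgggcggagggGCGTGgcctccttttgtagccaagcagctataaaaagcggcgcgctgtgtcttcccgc
FOS: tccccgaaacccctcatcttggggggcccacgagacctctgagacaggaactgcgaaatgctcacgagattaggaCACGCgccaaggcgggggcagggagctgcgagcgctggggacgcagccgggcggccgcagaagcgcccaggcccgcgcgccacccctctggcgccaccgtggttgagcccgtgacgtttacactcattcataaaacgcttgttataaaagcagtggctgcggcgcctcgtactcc
SCIN: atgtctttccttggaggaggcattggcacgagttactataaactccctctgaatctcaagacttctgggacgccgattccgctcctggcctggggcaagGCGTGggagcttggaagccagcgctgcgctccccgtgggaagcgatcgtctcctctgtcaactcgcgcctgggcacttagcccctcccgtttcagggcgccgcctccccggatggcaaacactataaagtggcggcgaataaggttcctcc
LUCAT1: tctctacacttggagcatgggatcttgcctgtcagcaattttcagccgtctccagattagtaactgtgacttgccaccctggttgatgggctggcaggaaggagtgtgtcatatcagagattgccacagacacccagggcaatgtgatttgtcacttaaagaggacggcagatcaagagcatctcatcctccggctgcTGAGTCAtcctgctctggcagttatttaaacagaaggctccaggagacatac
TNFSF9 held GCGTG 3 times, FOS (as CACGC) and SCIN once each, and LUCAT1 held the AP-1 motif once. H2BC5 held none of these letters in this window, and POU5F1, PSORS1C3, APOL1, TFF2, PAG1, C8orf58 and APOL2 had no entry.

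Over windows of 300 bases (250 before to 50 after the start), ACGTG on either strand stood in 21.6% of all 27305 RefSeq promoters and in 26.6% of the 11029 of tested genes. It stood in 25 of 43 promoters of known HIF targets that rose (58.1%), in 24.4% of 1172 promoters of other genes that rose and in 30.3% of 1999 promoters of genes that fell. GCGTG stood in 36.3%, 50%, 51.2%, 39.7% and 56.9% of these 5 sets in the same order, and the AP-1 motif in 4.92%, 3.25%, 6.98%, 4.44% and 2.05%. GCGTG stood 3 times or more, as in TNFSF9, in 4.3%, 6.56%, 2.33%, 5.89% and 6.5%. Mean GC content differed between the sets as well (57.2%, 64.1%, 67.3%, 62.9% and 63.4%). A match is a run of letters, not a shown site.

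FOS is an immediate early gene, a class that answers growth factors and stress within minutes. It stood at 8.15, 9.27 and 7.87 CPM in normoxia and 30.6, 33.7 and 27.5 CPM in hypoxia (log2 fold change 1.86, SE 0.137, adjusted p 3.90e-06). The list of immediate early genes also serves as a sign of stress during the handling of cells and RNA, whose part was not tested. Of that list 8 of 19 rose and 0 fell, with a median log2 fold change of 0.41, and the rises numbered 5 without normoxia C or hypoxia B. JUNB, another AP-1 subunit, stood at 3.06, 3.56 and 3.10 CPM in normoxia and 5.93, 9.37 and 5.37 CPM in hypoxia (log2 fold change 1.09, SE 0.323, adjusted p 0.029). Hypoxia B was its highest library, and the call was lost without normoxia A, normoxia B, normoxia C or hypoxia B, or with no filter on low counts (adjusted p 0.0602 to 0.114).

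Of the genes of MAPK and growth factor output 13 of 32 rose and 4 fell, with a median log2 fold change of 0.20. The phosphatase DUSP6, which switches off ERK, stood at 165, 161 and 158 CPM in normoxia and 262, 254 and 257 CPM in hypoxia (log2 fold change 0.68, SE 0.0474, adjusted p 3.18e-06), without overlap. The AP-1 subunit FOSL2 (0.92, SE 0.0599, adjusted p 1.78e-06) and the receptor EGFR (0.58, SE 0.0551, adjusted p 2.26e-05) rose, and cyclin D1 (CCND1) fell (-0.41, SE 0.0499, adjusted p 0.000134). Another AP-1 subunit, FOSL1, and the transcription factor MYC also fell. FOSL1 lost its call without any 1 of the 6 libraries (adjusted p 0.0581 to 0.144). MYC lost its call without normoxia A, normoxia B, normoxia C, hypoxia A or hypoxia B (adjusted p 0.0545 to 0.0756). The rises of this list numbered 8 without normoxia C or hypoxia B, and the falls 2 when 1 of normoxia A, normoxia B, normoxia C, hypoxia A and hypoxia B was left out. Of NF-kB targets, chemokines and cytokines 9 of 31 rose and 4 fell, with a median log2 fold change of 0.21. NF-kB falls numbered 2 with no filter on low counts and 8 with the GC correction. The cytokine IL1B went from 2.04, 2.23 and 2.00 CPM to 4.13, 3.42 and 3.56 CPM (log2 fold change 0.83, SE 0.131, adjusted p 0.000748), and the chemokine CCL20 (0.70, SE 0.113, adjusted p 0.000805) and the NF-kB inhibitor NFKBIA (0.64, SE 0.147, adjusted p 0.00769) rose. The neutrophil chemokine CXCL5 (-0.82, SE 0.143, adjusted p 0.00141) and the siderophore binder LCN2 (-0.66, SE 0.0772, adjusted p 0.00010) fell.

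Most genes that copy DNA were lower in hypoxia. Of the replication and G1/S list 0 of 47 rose and 38 fell, with a median log2 fold change of -0.67. CLSPN, a mediator of the replication checkpoint, stood at 38.4, 36.4 and 40.2 CPM in normoxia and 16.8, 16.7 and 17.7 CPM in hypoxia (log2 fold change -1.17, SE 0.104, adjusted p 1.41e-05). MCM10, a replication initiation factor, went from 46.2, 43.7 and 44.8 CPM to 21.7, 21.1 and 23.7 CPM (log2 fold change -1.02, SE 0.0592, adjusted p 6.08e-07), and the sliding clamp PCNA went from 202, 192 and 207 CPM to 108, 107 and 111 CPM (log2 fold change -0.88, SE 0.0698, adjusted p 5.74e-06). The 2 groups were apart in all 3 genes. Of the 6 helicase subunits MCM2 to MCM7, 4 fell, and MCM2 stood at -0.50 (adjusted p 0.0743) and MCM5 at -0.26 (adjusted p 0.548). MCM2 was called lower under 6 of the alternatives, DESeq2 among them (adjusted p 0.0323).

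Of DNA repair genes 0 of 54 rose and 40 fell, with a median log2 fold change of -0.51. The helicase BLM went from 29.9, 27.2 and 29.8 CPM to 15.9, 13.4 and 16.4 CPM (log2 fold change -0.92, SE 0.115, adjusted p 0.000157), and the exonuclease EXO1 (-0.86, SE 0.11, adjusted p 0.000183) and the crosslink repair protein FANCD2 (-0.74, SE 0.103, adjusted p 0.000321) fell. Of mitosis genes 1 of 48 rose and 32 fell, with a median log2 fold change of -0.39, led by the kinesin KIF15 (-0.66, SE 0.122, adjusted p 0.00201) and the kinetochore protein SPC25 (-0.66, SE 0.131, adjusted p 0.00319). The mitotic rise was UBE2C, a ubiquitin-conjugating enzyme (0.21, SE 0.0683, adjusted p 0.0429), whose call was lost without any 1 of the 6 libraries, or with total count scaling or with no filter on low counts (adjusted p 0.0658 to 0.124). DDIAS (-1.23, SE 0.128, adjusted p 4.44e-05) and AUNIP (-1.13, SE 0.0994, adjusted p 1.31e-05), linked to DNA damage and mitosis, were among the 12 largest falls at a mean of at least 5 CPM.

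Genes that make nucleotides were lower as well. Of the purine and pyrimidine list 0 of 29 rose and 20 fell, with a median log2 fold change of -0.44. CTPS1, a CTP synthase, stood at 67.4, 64.2 and 67.0 CPM in normoxia and 26.8, 25.9 and 28.2 CPM in hypoxia (log2 fold change -1.29, SE 0.0596, adjusted p 1.45e-07). DHODH, which passes electrons from pyrimidine synthesis to the respiratory chain, went from 6.14, 7.09 and 5.83 CPM to 3.74, 3.22 and 4.40 CPM (log2 fold change -0.74, SE 0.16, adjusted p 0.00493). Of serine and one-carbon genes 0 of 18 rose and 12 fell, with a median log2 fold change of -0.36, among them PSAT1, the aminotransferase of serine synthesis, which went from 33.7, 30.5 and 31.6 CPM to 13.2, 12.2 and 12.0 CPM (log2 fold change -1.36, SE 0.0783, adjusted p 6.08e-07). Libraries did not overlap in these 3 genes. Thymidylate synthase (TYMS) fell too (-0.59, SE 0.0558, adjusted p 2.19e-05).

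Of targets of ATF4, the factor of the integrated stress response, 1 of 21 rose and 6 fell, with a median log2 fold change of 0.02. The asparagine synthetase ASNS went from 183, 181 and 188 CPM to 108, 97.9 and 111 CPM (log2 fold change -0.80, SE 0.078, adjusted p 2.65e-05), and the amino acid transporter SLC38A2 was the 1 rise (0.55, SE 0.132, adjusted p 0.00934). Of cytosolic aminoacyl-tRNA synthetases and their scaffold 1 of 22 rose and 16 fell, with a median log2 fold change of -0.39. FARSB, of the phenylalanine enzyme, fell most (-0.93, SE 0.0906, adjusted p 2.61e-05).

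Ribosome assembly genes and ribosomal protein genes differed. Of ribosome biogenesis genes 0 of 68 rose and 48 fell, with a median log2 fold change of -0.46. LTV1, which acts in small subunit maturation, went from 49.97, 48.0 and 50.9 CPM to 25.3, 22.0 and 28.4 CPM (log2 fold change -0.98, SE 0.118, adjusted p 0.00013), and the snoRNP protein NOP56 fell (-0.77, SE 0.0519, adjusted p 2.34e-06). Of cytosolic ribosomal proteins 1 of 77 rose and 0 fell, with a median log2 fold change of 0.13. The rise was RPS27 (0.15, SE 0.0446, adjusted p 0.0272), lost without normoxia A, normoxia B, normoxia C, hypoxia A or hypoxia C, or with total count scaling, with no filter on low counts or when blocked by transfected well (adjusted p 0.0626 to 0.27). With a correction for GC content 17 of the 77 were called higher and 0 lower. These genes have many processed copies, so their assigned reads are uncertain.

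Nuclear genes of the mitochondrion were mostly lower or not called. Of mitochondrial ribosomal proteins 2 of 75 rose and 43 fell, with a median log2 fold change of -0.32, and the falls numbered 28 without normoxia A. MRPS6 went against its list, from 111, 101 and 107 CPM to 242, 248 and 187 CPM (log2 fold change 1.09, SE 0.139, adjusted p 0.000212). The other rise, MRPL53 (0.37, SE 0.119, adjusted p 0.0392), was lost without any 1 of the 6 libraries, or with no filter on low counts, when blocked by replicate letter or when blocked by transfected well (adjusted p 0.0539 to 0.15). Of complex I genes 0 of 37 rose and 17 fell, with a median log2 fold change of -0.24, led by NDUFB3 (-0.50, SE 0.0749, adjusted p 0.000513). Of complexes II to V 0 of 41 rose and 25 fell, with a median log2 fold change of -0.22, with ATP5MC1 of the ATP synthase ring lowest (-0.73, SE 0.117, adjusted p 0.000847). Of mitochondrial import genes 0 of 29 rose and 13 fell, with a median log2 fold change of -0.31, led by TIMM8A (-0.68, SE 0.0729, adjusted p 5.66e-05).

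Of the genes encoded in the mitochondrial genome 1 of 13 rose and 1 fell, with a median log2 fold change of -0.02. MT-ND6, the one coded on the light strand, went from 209, 196 and 192 CPM to 123, 153 and 125 CPM (log2 fold change -0.57, SE 0.123, adjusted p 0.00497). MT-CO3 rose slightly (0.24, SE 0.0497, adjusted p 0.00374), a call lost with no filter on low counts (adjusted p 0.057). Of TCA cycle genes 1 of 30 rose and 15 fell, with a median log2 fold change of -0.17, led by ME2 (-0.71, SE 0.107, adjusted p 0.000578) and IDH3A (-0.69, SE 0.0693, adjusted p 3.59e-05). The 1 rise was pyruvate carboxylase, PC, at 2.36, 2.71 and 2.34 CPM in normoxia and 5.36, 9.37 and 4.44 CPM in hypoxia (log2 fold change 1.37, SE 0.416, adjusted p 0.0319). Hypoxia B was its highest library and the one whose counts rose most with GC content. PC was called with a GC correction, at a log2 fold change of 1.13 (adjusted p 0.000325), and lost its call without normoxia A, normoxia B, normoxia C, hypoxia A or hypoxia B, or with no filter on low counts (adjusted p 0.0508 to 0.133). The part of GC content was not tested.

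Of proteasome subunits 0 of 31 rose and 20 fell, with a median log2 fold change of -0.37, among them PSMD1 (-0.66, SE 0.0865, adjusted p 0.000212) and PSMD14 (-0.63, SE 0.0889, adjusted p 0.000369) of the regulatory particle. Of cytosolic chaperones 0 of 28 rose and 14 fell, with a median log2 fold change of -0.30. The Hsp70 co-factor HSPA4 fell (-0.67, SE 0.114, adjusted p 0.00119), and 7 of the 8 subunits of the chaperonin CCT fell, with CCT6A going from 712, 664 and 695 CPM to 452, 419.5 and 467 CPM (log2 fold change -0.63, SE 0.0803, adjusted p 0.000184). Of endoplasmic reticulum chaperones and genes of the unfolded protein response 0 of 37 rose and 5 fell, with a median log2 fold change of -0.10. The falls of that list numbered 2 to 3 when 1 of normoxia A, normoxia C, hypoxia A and hypoxia B was left out. Its falls numbered 11 with total count scaling or with the 6 libraries alone, 2 with no filter on low counts and 13 with the GC correction. With the GC correction 5 genes of that list were called higher.

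Of the core spliceosome 0 of 49 rose and 19 fell, with a median log2 fold change of -0.17, led by SNRNP40 (-0.68, SE 0.0804, adjusted p 0.000115) and SNRPD1 (-0.66, SE 0.0503, adjusted p 4.30e-06). Of mRNA export, capping and polyadenylation genes 0 of 34 rose and 16 fell, with a median log2 fold change of -0.22, and the falls numbered 8 to 10 when 1 of normoxia A, normoxia C, hypoxia A and hypoxia B was left out. Of translation initiation genes 2 of 37 rose and 13 fell, with a median log2 fold change of -0.15, and the falls numbered 8 without normoxia A, normoxia C or hypoxia B. The rises were EIF4A2 (0.25, SE 0.0844, adjusted p 0.046), lost without normoxia A, normoxia B, normoxia C, hypoxia A or hypoxia C, or with DESeq2 (adjusted p 0.0526 to 0.15), and EIF4B (0.23, SE 0.0576, adjusted p 0.0114), lost without hypoxia A or hypoxia C (adjusted p 0.0585 to 0.0599). EIF2B3, of the exchange factor of eIF2, went from 24.1, 24.6 and 25.1 CPM to 12.0, 11.2 and 12.8 CPM (log2 fold change -1.04, SE 0.077, adjusted p 3.92e-06), with no overlap.

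Splicing regulators moved both ways: 9 of 58 rose and 10 fell, with a median log2 fold change of -0.02. The CLK kinases phosphorylate SR proteins, and 3 of the 4 rose. CLK1 went from 98.8, 90.2 and 97.4 CPM to 164, 161 and 158 CPM (log2 fold change 0.76, SE 0.082, adjusted p 5.83e-05), and CLK3 (0.75, SE 0.155, adjusted p 0.00392) and CLK4 (0.60, SE 0.0953, adjusted p 0.000804) rose, while CLK2 stood at 0.18 (adjusted p 0.213). The other SR protein kinases fell, SRPK1 (-0.37, SE 0.092, adjusted p 0.0114) and SRPK2 (-0.32, SE 0.0804, adjusted p 0.0117). SRPK1 lost its call without normoxia A, normoxia C or hypoxia B (adjusted p 0.0541 to 0.0593) and SRPK2 without normoxia A (adjusted p 0.0508). The RNA-binding protein RBM5 rose (0.49, SE 0.051, adjusted p 4.36e-05). The rises of this list numbered 5 without normoxia B, normoxia C, hypoxia A or hypoxia B, and the falls 5 without normoxia A and 6 without normoxia C. Regulator rises numbered 16 with the GC correction, and falls numbered 16 with total count scaling or with the 6 libraries alone and 6 with no filter on low counts.

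Of 23 histone genes 12 rose and 1 fell. Among the 14 with symbols of the linker histones H1-1 to H1-6 and of the H2AC, H2BC, H3C and H4C series (grouped after their values were seen), 11 rose and 0 fell, with a median log2 fold change of 1.07. Most mRNAs of these series are known to end in a stem-loop without a poly(A) tail, although some genes also make polyadenylated forms, and the libraries were selected for poly(A). H2BC5 went from 5.67, 6.39 and 5.25 CPM to 19.2, 20.2 and 16.2 CPM (log2 fold change 1.69, SE 0.119, adjusted p 3.29e-06). H2AC6 went from 12.8, 10.7 and 10.8 CPM to 33.2, 32.2 and 29.6 CPM (log2 fold change 1.47, SE 0.106, adjusted p 3.53e-06), and H4C8 went from 1.53, 1.51 and 1.47 CPM to 7.27, 7.00 and 5.77 CPM (log2 fold change 2.15, SE 0.124, adjusted p 6.08e-07). The groups were apart in all 3. H2AZ1, a variant with a polyadenylated mRNA, fell (-0.53, SE 0.0606, adjusted p 8.91e-05). Core histone genes resemble one another, so reads may be shared between copies.

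Of JmjC and TET dioxygenases 7 of 25 rose and 3 fell, with a median log2 fold change of 0.10. Dioxygenase rises numbered 12 with the GC correction. The demethylase KDM3A, a known HIF target, went from 130.1, 128 and 136 CPM to 386, 334 and 384 CPM (log2 fold change 1.49, SE 0.0834, adjusted p 4.69e-07). KDM4B (1.58, SE 0.228, adjusted p 0.000405), KDM5B (0.50, SE 0.0649, adjusted p 0.000216) and the DNA demethylase TET2 (0.46, SE 0.0894, adjusted p 0.00263) rose, and the nucleolar oxygenase RIOX2 fell (-0.70, SE 0.0734, adjusted p 4.56e-05). KDM4B, KDM4C and JMJD6 are, like KDM3A, also on the list of known HIF targets. Of chromatin writers and remodellers 5 of 44 rose and 6 fell, with a median log2 fold change of -0.02, and the rises numbered 3 without normoxia A. Chromatin rises numbered 10 with the 6 libraries alone and 11 with the GC correction, and falls numbered 11 with the 6 libraries alone and 14 with the GC correction. The maintenance methyltransferase DNMT1 went from 68.4, 72.5 and 69.9 CPM to 43.2, 48.3 and 42.7 CPM (log2 fold change -0.65, SE 0.0902, adjusted p 0.000312).

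Metallothioneins, small cysteine-rich proteins that bind zinc and copper, fell: all 7 tested (picked out after their values were seen) were called lower. MT1E went from 9.47, 11.5 and 10.9 CPM to 2.87, 4.15 and 3.39 CPM (log2 fold change -1.62, SE 0.19, adjusted p 0.000104). MT2A went from 3.73, 4.62 and 4.03 CPM to 0.649, 0.924 and 0.687 CPM (log2 fold change -2.46, SE 0.359, adjusted p 0.000527), and MT1X went from 2.18, 2.17 and 2.30 CPM to 0.483, 0.515 and 0.30 CPM (log2 fold change -2.34, SE 0.311, adjusted p 0.000242). No hypoxia library reached a normoxia library. These genes lie together on chromosome 16 and are alike in sequence, so reads may be shared between them. Of the whole metal list 2 of 24 rose and 9 fell, with a median log2 fold change of -0.21, and the exporter SLC30A10 rose (0.54, SE 0.13, adjusted p 0.00988).

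Of iron genes 6 of 25 rose and 9 fell, with a median log2 fold change of -0.06. The ferroxidase HEPH went from 10.8, 9.25 and 10.3 CPM to 21.2, 20.5 and 21.3 CPM (log2 fold change 1.05, SE 0.0813, adjusted p 4.80e-06), and the importer SLC11A2 (0.75, SE 0.0587, adjusted p 5.52e-06) and the ferritin heavy chain FTH1 (0.50, SE 0.0631, adjusted p 0.000161) rose. The haem enzyme CPOX rose too (0.90, SE 0.0919, adjusted p 3.86e-05), and the list as a whole moved both ways.

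Of mucins 4 of 9 rose and 0 fell, with a median log2 fold change of 0.50. The membrane mucin MUC1 went from 16.4, 17.1 and 16.0 CPM to 42.6, 43.7 and 39.9 CPM (log2 fold change 1.35, SE 0.107, adjusted p 5.64e-06). With the GC correction MUC1 stood at 0.92 and was not called (adjusted p 0.0887). MUC17 (0.37, SE 0.0696, adjusted p 0.00222) and MUC3A (0.54, SE 0.129, adjusted p 0.00951) rose, and the secreted mucins MUC5B, at 0.96 (adjusted p 0.139), and MUC5AC, at -0.56 (adjusted p 0.22), were not called. MUC5B was called higher with the GC correction (adjusted p 0.00539).

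Of epithelial junction and keratin genes 6 of 33 rose and 2 fell, with a median log2 fold change of 0.24. E-cadherin (CDH1) went from 154, 158 and 159 CPM to 242, 239.6 and 230.1 CPM (log2 fold change 0.60, SE 0.0479, adjusted p 6.35e-06) and desmoplakin (DSP) rose (0.73, SE 0.0646, adjusted p 1.32e-05). The keratin KRT23 went from 10.02, 10.2 and 10.3 CPM to 3.94, 3.67 and 3.39 CPM (log2 fold change -1.47, SE 0.105, adjusted p 3.52e-06). Epithelial rises numbered 13 with the 6 libraries alone, 10 when blocked by replicate letter and 16 with the GC correction. Of mesenchymal genes 5 of 13 rose and 1 fell, with a median log2 fold change of 0.30. The mesenchymal list held 21 genes. CDH2, CDH11, TWIST1, TWIST2, FOXC2, PRRX1, SPARC and CALD1 did not pass the filter on low counts and were not tested. The receptor kinase AXL went from 138, 146 and 137 CPM to 225, 220.1 and 223 CPM (log2 fold change 0.66, SE 0.0816, adjusted p 0.000145), vimentin (VIM) (0.50, SE 0.0622, adjusted p 0.000154) and the proteoglycan LUM (0.44, SE 0.0965, adjusted p 0.00546) rose, and TGFBI fell (-0.34, SE 0.0806, adjusted p 0.00899). E-cadherin and vimentin were thus both higher.

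Of matrix genes 5 of 28 rose and 3 fell, with a median log2 fold change of 0.22. The laminin LAMB2 stood at 20.9, 25.3 and 22.4 CPM in normoxia and 44.1, 57.4 and 38.2 CPM in hypoxia (log2 fold change 1.03, SE 0.276, adjusted p 0.0178), hypoxia B again highest, and lost its call without normoxia A, normoxia C or hypoxia B, or with no filter on low counts (adjusted p 0.0573 to 0.0854). COL7A1 (1.40, SE 0.464, adjusted p 0.0471) and the epithelial protease PRSS8 (1.67, SE 0.472, adjusted p 0.023) were alike in this, lost without normoxia A, normoxia B, normoxia C, hypoxia A or hypoxia B, or with total count scaling or with no filter on low counts (adjusted p 0.055 to 0.188) and without normoxia A, normoxia B, normoxia C or hypoxia B, or with no filter on low counts (adjusted p 0.0534 to 0.102). With the GC correction all 3 were called, LAMB2 at 0.84 (adjusted p 4.11e-07), COL7A1 at 1.04 (adjusted p 0.000608) and PRSS8 at 1.39 (adjusted p 8.49e-05). The matrix rises numbered 2 to 3 when 1 of normoxia A, normoxia B, normoxia C, hypoxia A and hypoxia B was left out. Matrix rises numbered 2 with no filter on low counts, 10 with the 6 libraries alone and 14 with the GC correction. The part of library composition was not tested. Of integrins 2 of 12 rose and 1 fell, with a median log2 fold change of 0.25, with ITGA5 (1.14, SE 0.262, adjusted p 0.00761) and ITGB8 (0.60, SE 0.104, adjusted p 0.00132) up and ITGAE (-0.54, SE 0.0985, adjusted p 0.00194) down. Of actin and myosin genes 7 of 47 rose and 2 fell, with a median log2 fold change of 0.07, and the rises numbered 4 without normoxia A, normoxia C or hypoxia B. Actin and myosin rises numbered 4 with no filter on low counts, 12 with the 6 libraries alone and 13 with the GC correction. Of its 2 falls, TPM4 (-0.24, SE 0.0661, adjusted p 0.0199) was lost without normoxia A, normoxia B, normoxia C or hypoxia B, or with no filter on low counts (adjusted p 0.0562 to 0.087).

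Of signalling lists, YAP and TEAD targets gave 6 of 22 rose and 2 fell, with a median log2 fold change of 0.04, with tissue factor (F3) up (0.58, SE 0.0743, adjusted p 0.00018). Of the 2 falls, TEAD4 (-0.41, SE 0.131, adjusted p 0.037) was lost without any 1 of the 6 libraries (adjusted p 0.0565 to 0.115). Of TGF-beta genes 4 of 24 rose and 2 fell, with a median log2 fold change of 0.15, and the rises numbered 1 to 2 when 1 of normoxia B, normoxia C, hypoxia A and hypoxia B was left out. TGF-beta rises numbered 7 with a minimum of 1 CPM in 3 libraries or with the 6 libraries alone and 8 with the GC correction. The fall of its receptor gene TGFBR2 (-0.18, SE 0.0556, adjusted p 0.0346) was lost without any 1 of the 6 libraries, or with no filter on low counts, when blocked by transfected well or with DESeq2 (adjusted p 0.057 to 0.27). Of Wnt and Notch genes 6 of 31 rose and 6 fell, with a median log2 fold change of 0.09, with the ligand WNT11 up (1.31, SE 0.244, adjusted p 0.00211), and the falls numbered 2 to 3 when 1 of normoxia A, normoxia B, normoxia C, hypoxia A and hypoxia B was left out. Wnt and Notch falls numbered 3 with no filter on low counts.

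Of clock genes 8 of 18 rose and 3 fell, with a median log2 fold change of 0.20. The repressor BHLHE40, a HIF target, went from 53.1, 57.2 and 56.8 CPM to 111, 113 and 103 CPM (log2 fold change 0.97, SE 0.0721, adjusted p 3.92e-06), NFIL3 (0.86, SE 0.0997, adjusted p 9.78e-05) and PER2 (0.53, SE 0.093, adjusted p 0.00149) rose, and CRY1 fell (-0.44, SE 0.0894, adjusted p 0.00374). The clock rises numbered 4 without normoxia A, normoxia C or hypoxia A and 5 without hypoxia B, and the falls 1 without normoxia C.

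Of interferon genes 4 of 37 rose and 5 fell, with a median log2 fold change of -0.01. The antiviral enzyme OAS1 went from 166, 169.9 and 164 CPM to 288, 303 and 272 CPM (log2 fold change 0.79, SE 0.0636, adjusted p 6.67e-06) and IRF9, a subunit of the interferon-activated factor, rose (0.89, SE 0.179, adjusted p 0.00335). The falls numbered 3 when 1 of normoxia A, normoxia B, normoxia C, hypoxia A and hypoxia B was left out. Interferon falls numbered 8 with total count scaling or with the 6 libraries alone and 12 with the GC correction. Of antigen presentation genes 1 of 23 rose and 2 fell, with a median log2 fold change of -0.03. The rise was TAPBP (0.44, SE 0.123, adjusted p 0.0202), lost without normoxia A, normoxia C or hypoxia C (adjusted p 0.0504 to 0.0711). The peptide transporter subunit TAP2 went from 18.5, 18.9 and 19.1 CPM to 10.6, 8.01 and 10.6 CPM (log2 fold change -0.95, SE 0.111, adjusted p 0.000101), and the proteasome activator PSME2 fell (-0.63, SE 0.0726, adjusted p 9.25e-05).

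Of p53 targets 2 of 26 rose and 5 fell, with a median log2 fold change of -0.08, with TP53I3 up (0.93, SE 0.125, adjusted p 0.000251) and the fructose bisphosphatase TIGAR down (-1.01, SE 0.173, adjusted p 0.00125). P53 target falls numbered 8 with the GC correction. Of apoptosis regulators 3 of 29 rose and 3 fell, with a median log2 fold change of 0.03, and the falls numbered 0 without normoxia C and 1 without normoxia A or hypoxia B. Apoptosis rises numbered 5 with a minimum of 1 CPM in 3 libraries and 7 with the GC correction, and falls numbered 5 with total count scaling, 1 with no filter on low counts and 8 with the GC correction. Of NRF2 targets 2 of 27 rose and 9 fell, with a median log2 fold change of -0.05, and the falls numbered 3 to 5 when 1 of normoxia A, normoxia C, hypoxia A and hypoxia C was left out. NRF2 falls numbered 4 with no filter on low counts. Of its 2 rises, HMOX1 (0.64, SE 0.213, adjusted p 0.0459) was lost without normoxia A, normoxia B, normoxia C, hypoxia A or hypoxia B, or with total count scaling (adjusted p 0.063 to 0.146).

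Of lysosome genes 5 of 42 rose and 8 fell, with a median log2 fold change of -0.04, with the sulphatase ARSB lowest (-0.92, SE 0.0898, adjusted p 2.69e-05), and the falls numbered 5 without normoxia C. Lysosome falls numbered 14 with the GC correction. Of autophagy genes 5 of 32 rose and 4 fell, with a median log2 fold change of 0.08. The mitophagy receptor BNIP3L, also on the list of known HIF targets, was highest (1.64, SE 0.081, adjusted p 2.21e-07). Autophagy rises numbered 13 with the GC correction, and falls numbered 7 with the GC correction. Of secretory pathway genes 4 of 45 rose and 7 fell, with a median log2 fold change of 0.02, and the rises numbered 0 to 2 with any 1 of the 6 libraries left out and the falls 3 without normoxia C and 4 without hypoxia B. Secretory rises numbered 2 when blocked by transfected well and 10 with the GC correction, and falls numbered 12 with the 6 libraries alone or with the GC correction. These lists held calls in both directions.

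Of cholesterol synthesis genes 5 of 24 rose and 0 fell, with a median log2 fold change of 0.20, and the rises numbered 1 to 3 with any 1 of the 6 libraries left out. Cholesterol rises numbered 3 with total count scaling, 1 with no filter on low counts and 11 with the GC correction. Of fatty acid and triglyceride synthesis genes 1 of 22 rose and 7 fell, with a median log2 fold change of -0.13, with the desaturase FADS1 lowest (-0.84, SE 0.129, adjusted p 0.000588). The 1 rise, ACACB (0.53, SE 0.151, adjusted p 0.0238), was lost without normoxia A, normoxia C, hypoxia A or hypoxia B (adjusted p 0.0534 to 0.090). Of fatty acid oxidation genes 1 of 23 rose and 3 fell, with a median log2 fold change of 0.00, with the receptor PPARA up (0.37, SE 0.0563, adjusted p 0.00056). Of amino acid transporters 3 of 21 rose and 5 fell, with a median log2 fold change of -0.11, with SLC36A1 lowest (-0.74, SE 0.078, adjusted p 5.09e-05), and the falls numbered 3 without normoxia A. Transporter falls numbered 10 with the GC correction.

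By annotated class, 1416 of 12584 coding genes rose (11.25%) and 2363 fell (18.78%). Of 751 lincRNAs, 94 rose (12.5%) and 32 fell (4.26%). Of 888 antisense genes, 77 rose and 36 fell. Of the 77, 62 overlap a tested coding gene and 15 overlap one that rose. Of lncRNAs with a described role 10 of 33 rose and 4 fell, with a median log2 fold change of 0.05, and the falls numbered 1 to 2 when 1 of normoxia A, normoxia B, normoxia C, hypoxia A and hypoxia B was left out. LncRNA falls numbered 1 with no filter on low counts, 7 with the 6 libraries alone and 2 when blocked by transfected well. UCA1 went from 1.40, 0.919 and 0.947 CPM to 5.39, 5.26 and 3.46 CPM (log2 fold change 2.09, SE 0.202, adjusted p 2.49e-05). The paraspeckle scaffold NEAT1 rose (0.41, SE 0.056, adjusted p 0.000291) and MALAT1 stood at -0.07 (adjusted p 0.599).

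**Figure D3:**
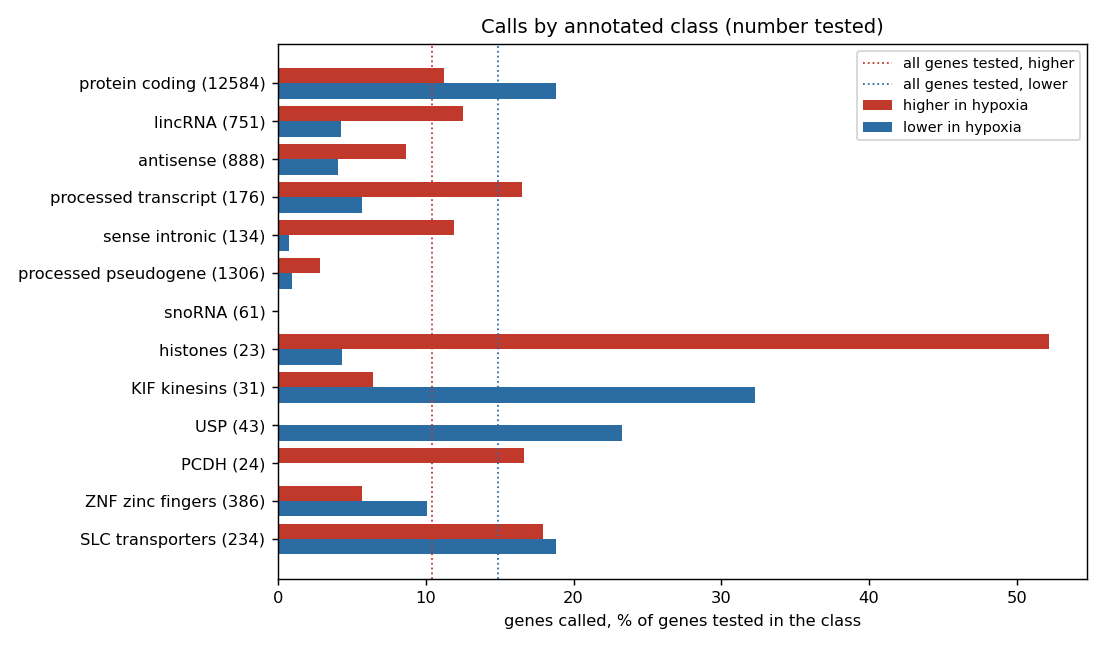
Share of tested genes (x axis, percent) called higher or lower in hypoxia by annotated class or symbol family (y axis), with dotted lines at the shares over all genes, 10.4% and 14.9%. Of 23 histone genes 12 were called higher and 1 lower.

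Other genes were also among the 12 largest falls at a mean of at least 5 CPM. LRRC8B, a subunit of volume-regulated anion channels, went from 20.4, 19.5 and 20.8 CPM to 8.24, 7.93 and 8.91 CPM (log2 fold change -1.27, SE 0.089, adjusted p 3.10e-06). The rest were the ornithine carrier SLC25A15 (-1.15, SE 0.0909, adjusted p 5.72e-06), the transcription factor subunit TAF9B (-1.17, SE 0.104, adjusted p 1.47e-05), TBC1D30 (-1.14, SE 0.0976, adjusted p 1.04e-05) and ERVMER34-1, an endogenous retroviral envelope gene (-1.18, SE 0.146, adjusted p 0.000151).

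Splicing was measured as PSI, the share of the named form among the reads that tell the forms apart. For retained introns the files give the mean coverage of the intron in place of reads of that form, so what stands for reads there, in the minimum and in the weights, is that coverage plus the junction reads. Of 40169 events in 7078 genes with at least 20 such reads in each of the 12 libraries, 16 passed the adjusted p of limma's test (0.0398%), 5 of them with a PSI difference of at least 0.05 (0.0124%), and 2381 had an unadjusted p under 0.05. In all 16, 1 form was listed at 0 in every library of a group. The 3 and 3 libraries did not overlap in 1445 events higher in hypoxia (3.6%) and 1472 lower (3.66%).

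The largest of the 5 was an alternative 3′ site of the ribosomal protein gene RPS7, with 0 of 60, 29 and 45 reads in normoxia and 409 of 469, 256 of 295 and 273 of 318 in hypoxia (PSI 0.87, 0.87 and 0.86, adjusted p 1.86e-05, limma). The 0 of 134 reads allows a share of up to 2.24%, for counting error only. All 6 siARNT libraries were at 0 too. Other abundant genes had forms listed at 0 in some libraries and not in others of the same group: in RPS12 an exon had a PSI of 0.67, 1.00 and 0.65 in normoxia A, B and C, and in PTMA an alternative 5′ site had 0.56, 0.00 and 0.59 in hypoxia A, B and C, with 0 of 269 reads in hypoxia B. So a 0 here may reflect how forms were listed per library, which was not tested, and the RPS7 value is given with that limit. The other 4 events were in ARPC1B, RAB27B, STRBP and TBCCD1, and in each the other form was listed at 0 in 1 group.

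That test lets the expected spread of an event vary with its mean read number, but gives the libraries of an event equal weight. A fit weighted by the reads of both forms in each library, without that trend, was added after the data were seen. It called 68 events in 51 genes (0.169%), 38 higher and 30 lower, and shared only RPS7 with the 5 above. The events named from here on were chosen after their values were seen. Among the higher events were the PTMA site above and an RPS3A site at 0.05, 1.00 and 0.06 in normoxia and 1.00 in each hypoxia library. Among the lower ones was an HNRNPD site at 0.07, 0.08 and 0.00 in normoxia and 0.00 in each hypoxia library. The groups overlapped in these events, and the limit on values listed at 0 holds for them too. Retained introns made up 24 of the 38 higher events and 0 of the 30 lower ones. An intron of CLK1 was retained at 0.37, 0.33 and 0.35 in normoxia and 0.56, 0.61 and 0.48 in hypoxia, on a coverage plus junction reads of 116 to 239 (weighted adjusted p 0.0278, unweighted 0.568). An intron of the SR protein gene SRSF5 stood at 0.15, 0.18 and 0.15 in normoxia and 0.30, 0.33 and 0.25 in hypoxia (weighted adjusted p 0.00459, unweighted 0.572), and one of the RNA-binding protein gene TIAL1 at 0.69, 0.69 and 0.71 in normoxia and 0.84, 0.86 and 0.83 in hypoxia (weighted adjusted p 0.00108, unweighted 0.517). The groups did not overlap in these 3 introns. As genes, SRSF5 stood at 0.03 (adjusted p 0.735) and TIAL1 at 0.09 (adjusted p 0.537), neither called.

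Of 3827 retained introns tested, 333 lay higher in every hypoxia library than in any normoxia library (8.7%) and 81 lower (2.12%). Of 18967 skipped exons, 688 lay higher (3.63%) and 830 lower (4.38%). Mean intron PSI was 0.8075 ± 0.0028 in normoxia and 0.8174 ± 0.0020 in hypoxia (SD, n = 3, and p = 0.1 in a two-sided exact permutation test, the smallest that 3 against 3 allows). Median intron PSI was 0.95 in each normoxia library and 0.95, 0.96 and 0.96 in hypoxia A, B and C. By this measure the form with the intron was the main form of most introns tested, in both groups. A listed intron can hold exon sequence of other forms, so a high PSI need not mean an intron kept in the mRNA. An RPL10 intron, for example, spans a skipped exon that was included at 0.99 to 1.00 in the 6 libraries. How many other introns do so was not tested. Of 125 introns in 34 splicing regulator genes, 42 lay higher (33.6%) and 1 lower (0.8%), against 7.86% and 2.16% of 3702 introns in other genes. The differences were mostly small, with a median PSI difference of 0.007 in regulator introns and 0.000 in the others. The weighted fit called 6 regulator introns in 5 genes higher, and 18 introns in 17 other genes. Limma's unweighted test called 0 of the 647 splicing events of regulator genes. Introns of 1 gene share reads and are not independent. The share of reads in no gene moved alongside, at 7.40%, 7.41% and 7.51% in normoxia and 8.91%, 8.62% and 8.36% in hypoxia, and its part in the intron values was not tested.

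**Figure D4:**
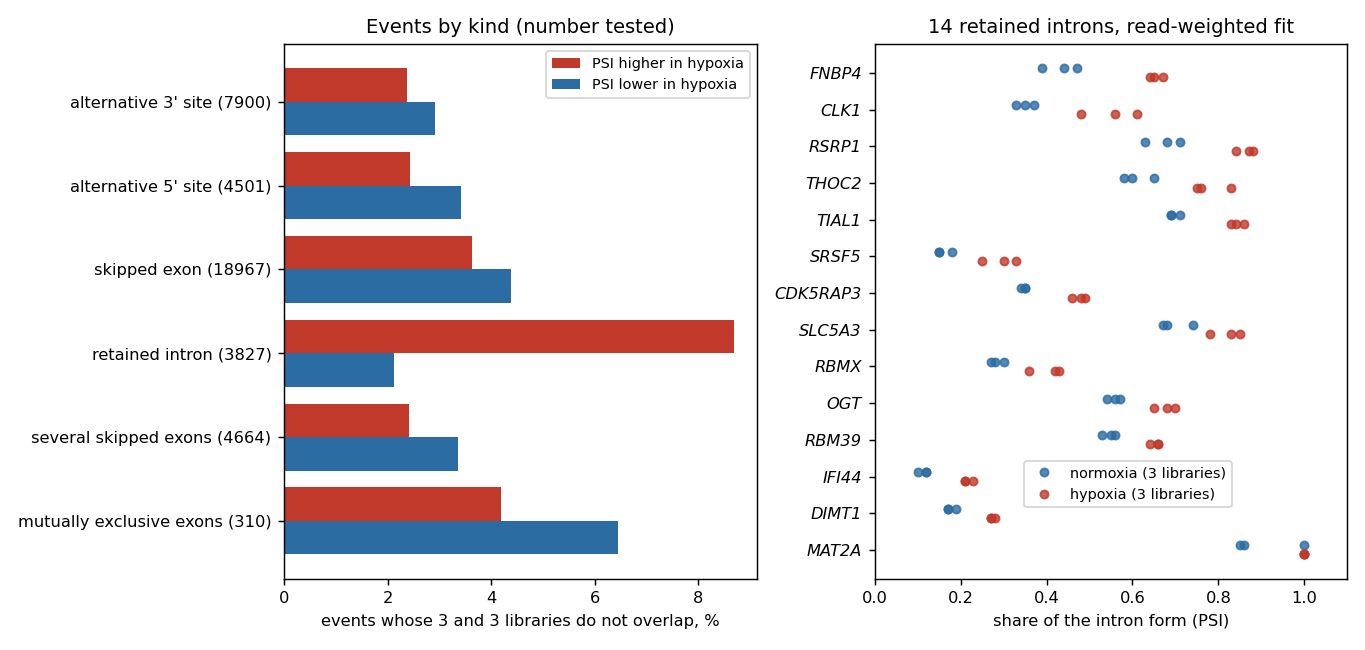
Left, share of tested events (x axis, percent) whose hypoxia libraries lie all above or all below the normoxia libraries, by kind of event (y axis). Right, PSI per library (x axis) for 14 retained introns called by the weighted fit (y axis, 1 per gene), with CLK1 at 0.33 to 0.37 in normoxia and 0.48 to 0.61 in hypoxia, while in MAT2A normoxia B reaches the hypoxia value of 1.00.

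Skipped exons called by the weighted fit were included less in 25 events and more in 8, several of them overlapping within a gene. A 60-base exon of EIF4H, a helper of the helicase eIF4A, was included at 0.22, 0.19 and 0.22 in normoxia and 0.11, 0.09 and 0.10 in hypoxia, on 1161 to 1957 reads (weighted adjusted p 6.84e-05, unweighted 0.533). A 39-base exon of the RNA-binding protein gene PCBP2 stood at 0.55, 0.54 and 0.55 in normoxia and 0.43, 0.43 and 0.46 in hypoxia (weighted adjusted p 0.00145, unweighted 0.894), and a 93-base exon of the complement regulator CD46 at 0.56, 0.55 and 0.54 in normoxia and 0.45, 0.46 and 0.48 in hypoxia (weighted adjusted p 0.000111, unweighted 0.907). Inclusion was lower in all 3 without overlap. It was higher for an 87-base exon of ABI1, of the WAVE actin complex, at 0.43, 0.42 and 0.44 in normoxia and 0.53, 0.54 and 0.58 in hypoxia (weighted adjusted p 0.0103, unweighted 0.719), and for a 104-base exon of NABP1, a single-strand DNA binding protein, at 0.22, 0.25 and 0.23 in normoxia and 0.38, 0.40 and 0.37 in hypoxia (weighted adjusted p 0.00443, unweighted 0.533). Of the 50 genes with a weighted call and a gene-level test, 9 rose and 7 fell.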

How the data were processed

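Poly(A)-selected RNA was sequenced as stranded single-end libraries, per the labels' protocols. Per the submitters' processing notes, Trimmomatic, STAR 2.4.2a and GRCh38.p10 were used, without their settings. The authors deposited raw read counts per gene, and PSI values (a fraction from 0 to 1) with read counts per form for each splicing event, in 6 kinds of event. For retained introns the authors deposited mean coverage of the intron in place of read counts. The counter's strand setting is not given in the sources used here. Event coordinates did not lie at GRCh38 positions (0.47% of 24368 exons) and are not printed. Summary lines, 23.44% to 25.2% of each of the 6 libraries, were removed. Symbols were found for 51996 of 57820 gene IDs, which held 99.35% of the counts.

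Genes were tested with edgeR 4.0.16 (quasi-likelihood, TMM scaling, filterByExpr) with 1 mean for each of the 4 groups over all 12 libraries, so the siARNT libraries share the estimate of spread, and Benjamini-Hochberg adjustment over all genes. CPM per library carry the TMM scaling, except those of the cell type markers. Events were tested with limma 3.58.1 on log2((form + 0.5)/(other + 0.5)) reads with at least 20 reads in each library. The expected spread followed a trend on mean read number, except in the read-weighted fit. R 4.3.3, DESeq2 1.42.0 (an alternative), Python 3.11.15, pandas 2.3.3 and numpy 2.4.6 were used. The scripts were tested on simulated data. Replicate pairs differed by more than counting noise (chi-square per degree of freedom 5.84 to 29.99), so none was merged. Gene-level depth was 45.74 to 75.62 M reads, so counting error is small beside replicate spread except for low genes. Intervals cover counting error only.

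Named genes were, in each list, the 2 largest called rises and falls whose mean reached 1 CPM, and the 12 largest rises and falls outside the HIF list with at least 5 CPM and no overlap, leaving out pseudogenes. Not all of these are printed, and some results are not reported here. Other genes named were chosen after their values were seen, as members of a list, family or gene pair. The comparison and the lists were chosen with earlier results of these data known. Alternatives covered scaling, filters, GC content, replicate blocks, the libraries fitted, DESeq2 and single libraries left out.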

Additional observations from a re-analysis of the deposited data

Results flagged for a closer look

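The share of reads that fell in no annotated gene, which no comparison of genes uses, was higher in hypoxia. It stood at 7.40%, 7.41% and 7.51% in normoxia A, B and C (7.44% ± 0.061, SD, n = 3) and at 8.91%, 8.62% and 8.36% in hypoxia A, B and C (8.63% ± 0.28, SD, n = 3), a difference of 1.19 percentage points without overlap. A two-sided exact permutation test gave p = 0.1, the smallest that 3 against 3 allows. In the 6 siARNT libraries the share lay between 6.57% and 7.64%. The share of reads assigned to genes was 76.43% ± 0.17 in normoxia and 75.08% ± 0.33 in hypoxia (SD, n = 3).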

How the results depend on the processing

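The 1772 rises became 3442 with a GC correction, 3559 with the GC correction and the replicate letter as a block, and 385 with a 2-fold minimum, and lay between 1199 and 1572 with 1 library left out. The 2527 falls became 3863 with the block and GC correction and 98 with the 2-fold minimum, and lay between 1674 (without normoxia C) and 2233 with 1 library left out. No shared call changed sign in any alternative, and 97.3% of calls were kept with the GC correction. A fit of the 6 libraries alone gave 2496 and 3230, DESeq2 gave 1787 and 2379, and total count scaling 1689 and 2997. Deviations of same-lettered libraries correlated by 0.064, 0.281 and 0.068 for A, B and C, and the letters were not taken to pair the samples. Deviations from a mean of 3 libraries depend on one another, so these values cannot decide whether same-lettered cultures shared a well. Normoxia A correlated more with hypoxia C (0.133) and normoxia C with hypoxia A (0.098). The replicate block by letter gave 2010 rises and 2730 falls, and by transfected well 1612 and 2342. Of the 4 events higher and 1 lower, a minimum of 50 reads left 1 and 0, a pseudocount of 2 left 2 and 0, the replicate block left 2 and 0, edgeR's test of the form by group term left 1 and 0, and a PSI difference of at least 0.1 left 2 and 0. No minimum PSI difference gave 7 and 8, the 6 libraries alone 24 and 17, read weights 38 and 30, and 1 library left out 4 to 10 and 2 to 6. EPAS1, CLK2 and TIAL1 were called higher with the GC correction. Medians of 8 lists changed sign in at least 1 alternative: ATF4, antigen presentation, apoptosis, fatty acid oxidation, interferon, mitochondrially encoded, secretory and splicing regulator genes. Low read numbers limited the metallothioneins other than MT1E and the events near 20 reads.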
